A study of Caenorhabditis elegans with 2 samples.

Results

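The genes described here encode the machinery of synaptic vesicle release, vesicle recycling and neuropeptide secretion. They were taken by name from a list of 42 genes, of which 41 carry that name in the gene annotation, out of 19973 protein-coding genes on the nuclear chromosomes. The name rab-27 is absent from the annotation and was dropped. Whole L3 larvae of Caenorhabditis elegans, both sexes pooled, were used to map the sites of the homeodomain protein CEH-28, tagged with eGFP, by chromatin immunoprecipitation and sequencing (ChIP-seq). The strain, OP241 (unc-119(ed3) III; wgIs241), carries an integrated transgene with the tagged protein in an unc-119 mutant background, and both samples share this genotype. The 2 samples are biological replicates of this 1 group, with no untagged or mutant group beside it. Which cells carried the tagged protein is not given in the sources used here. Whole animals were used, so the peak lists do not tell in which cells a site was occupied.

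CEH-28 belongs to the NK-2 class of homeodomain proteins and has been studied mainly in the pharyngeal motor neuron M4. A synaptic vesicle fuses with the plasma membrane when the vesicle SNARE protein synaptobrevin zips together with syntaxin and SNAP-25 on the target membrane, and proteins such as Munc18, Munc13, complexin and tomosyn regulate that step. Endocytic proteins then recover the vesicle membrane, while neuropeptides leave the cell from dense core vesicles after a convertase and a carboxypeptidase have trimmed their precursors.

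The thresholded list, which the authors derived from both replicates, held 3531 peaks with a signal from 65.9 to 5643. Signal is the value the authors' peak caller gave each peak, and it orders peaks within a list only. Relaxed lists of 30000 peaks each were made from replicate 1, from replicate 2 and from both pooled. The lists hold no read counts, so depth is unknown. Each annotated 5' end of a gene was given a promoter window, which began 1000 bp before it and ended 200 bp after it. Positions refer to ce11.

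Of the 41 genes, 12 had a thresholded summit in a promoter window (29.3%), beside 11.2% of all protein-coding genes. They were snb-1, unc-18, nsf-1 and tom-1 of the fusion machinery, syd-2 of the active zone, egl-21, ida-1 and ric-19 of neuropeptide secretion, egl-30 and rgef-1 of signalling, and unc-16 and unc-116 of axonal transport. No 2 of the 12 genes had the same summit, although 3 of the summits (egl-30, nsf-1 and ric-19) also lay in a window of another coding gene. Each summit lay outside the gene, upstream of its outermost annotated 5' end. The same was true of at least 1 summit for 84.4% of all genes with a promoter summit. Signal at the 12 summits ranged from 71.5 to 453.8 with a median of 154.3, beside a median of 106.8 over all 1864 promoter summits. Among the 12, 11 were above 109.5, the median of the thresholded list, and so were 48.0% of all promoter summits.

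The bases around 8 of these summits are printed here, because 7 letters that are frequent at the summits of the whole list occur in some of them and not in others. Each run covers 50 bases to either side of the summit on the strand of the gene, from 5′ to 3′, except that egl-21 stops before the first base of the exon. Capitals mark AATCGAT or AATCAAT on either strand. Bases were read from the RefSeq sequence of assembly WBcel235, which is ce11.
snb-1 (chrV:6656894-6656994, minus strand): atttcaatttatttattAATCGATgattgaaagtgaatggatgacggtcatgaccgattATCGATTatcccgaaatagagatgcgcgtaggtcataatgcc
unc-16 (chrIII:9546152-9546252, plus strand): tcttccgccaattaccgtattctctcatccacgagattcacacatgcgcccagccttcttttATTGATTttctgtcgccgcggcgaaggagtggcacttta
unc-18 (chrX:7682485-7682585, plus strand): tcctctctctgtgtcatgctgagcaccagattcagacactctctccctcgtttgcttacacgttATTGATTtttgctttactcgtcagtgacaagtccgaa
egl-21 (chrIV:10481845-10481907, minus strand): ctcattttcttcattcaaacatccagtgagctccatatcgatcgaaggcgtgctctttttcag
syd-2 (chrX:10555647-10555747, minus strand): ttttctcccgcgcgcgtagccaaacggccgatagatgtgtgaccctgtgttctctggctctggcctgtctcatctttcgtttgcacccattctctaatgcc
ida-1 (chrIII:5755287-5755387, plus strand): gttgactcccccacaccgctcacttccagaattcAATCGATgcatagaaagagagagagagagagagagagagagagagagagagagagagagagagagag
rgef-1 (chrV:9561992-9562092, minus strand): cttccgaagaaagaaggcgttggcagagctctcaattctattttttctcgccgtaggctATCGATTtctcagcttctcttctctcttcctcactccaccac
unc-116 (chrIII:8355227-8355327, minus strand): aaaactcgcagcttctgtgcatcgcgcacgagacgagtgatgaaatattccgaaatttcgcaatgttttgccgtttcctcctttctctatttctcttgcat
In snb-1 both matches were AATCGAT and lay on opposite strands, ida-1 and rgef-1 had 1 match to AATCGAT each, and unc-16 and unc-18 had 1 match to AATCAAT each. The runs of egl-21, syd-2 and unc-116 held no match to either. The ida-1 summit lay at the start of a long run of alternating a and g.

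The fusion machinery had 4 of its 9 genes with a promoter summit, beside 11.2% of all genes. The highest promoter signal of all 41 genes was at snb-1, which encodes synaptobrevin, the SNARE of the vesicle. Its peak lay on chromosome V from 6656791 to 6657095 with a signal of 453.8, rank 214 of 3531, and the summit was 443 bp from the 5' end. In the replicate lists this peak had a signal of 239.6 in replicate 1, at rank 271, and of 222.3 in replicate 2, at rank 161. It stood near the top of both lists.

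Next in this group came unc-18, the gene of the syntaxin-binding protein Munc18, with a signal of 180.9 (rank 917) on X from 7682335 to 7682734, 361 bp upstream. Signal there was 84.5 in replicate 1 and 102.7 in replicate 2. The gene of NSF, the ATPase that takes used SNARE complexes apart, is nsf-1. Its peak on chromosome I from 7772504 to 7772903 had a signal of 149.9 (rank 1154), with 74.5 in replicate 1 and 74.3 in replicate 2. The summit lay 473 bp upstream of nsf-1 and also in a promoter window of adr-1, an RNA-editing gene, so it cannot be assigned to either gene alone. For tom-1, which encodes tomosyn, an inhibitor of SNARE assembly, the peak on chromosome I from 5545601 to 5546000 had a signal of 130.9 (rank 1385), 317 bp upstream. Replicate 1 gave 69.2 and replicate 2 gave 62.2 there, so the values of nsf-1 and tom-1 were of like rank in both lists.

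The remaining 5 fusion genes had no thresholded summit in a window, and their best summits in the relaxed pooled list were far weaker. Signal in that list was 36.5 (rank 8191) at unc-64, the syntaxin gene, 18.1 at cpx-1, the complexin gene, 17.1 at unc-13, the Munc13 gene, and 15.8 at ric-4, the SNAP-25 gene. Of the 3 core SNARE genes, the vesicle SNARE gene therefore had a thresholded promoter summit and both plasma membrane SNARE genes had none, beside 11.2% of all genes with one. This depends on the window, since unc-64 had a thresholded summit 1264 bp upstream with a signal of 115.1. For snt-1, which encodes the calcium sensor synaptotagmin, there was no pooled summit, and the only one was in replicate 2, with a signal of 13.8 at rank 14740.

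**Figure D1:**
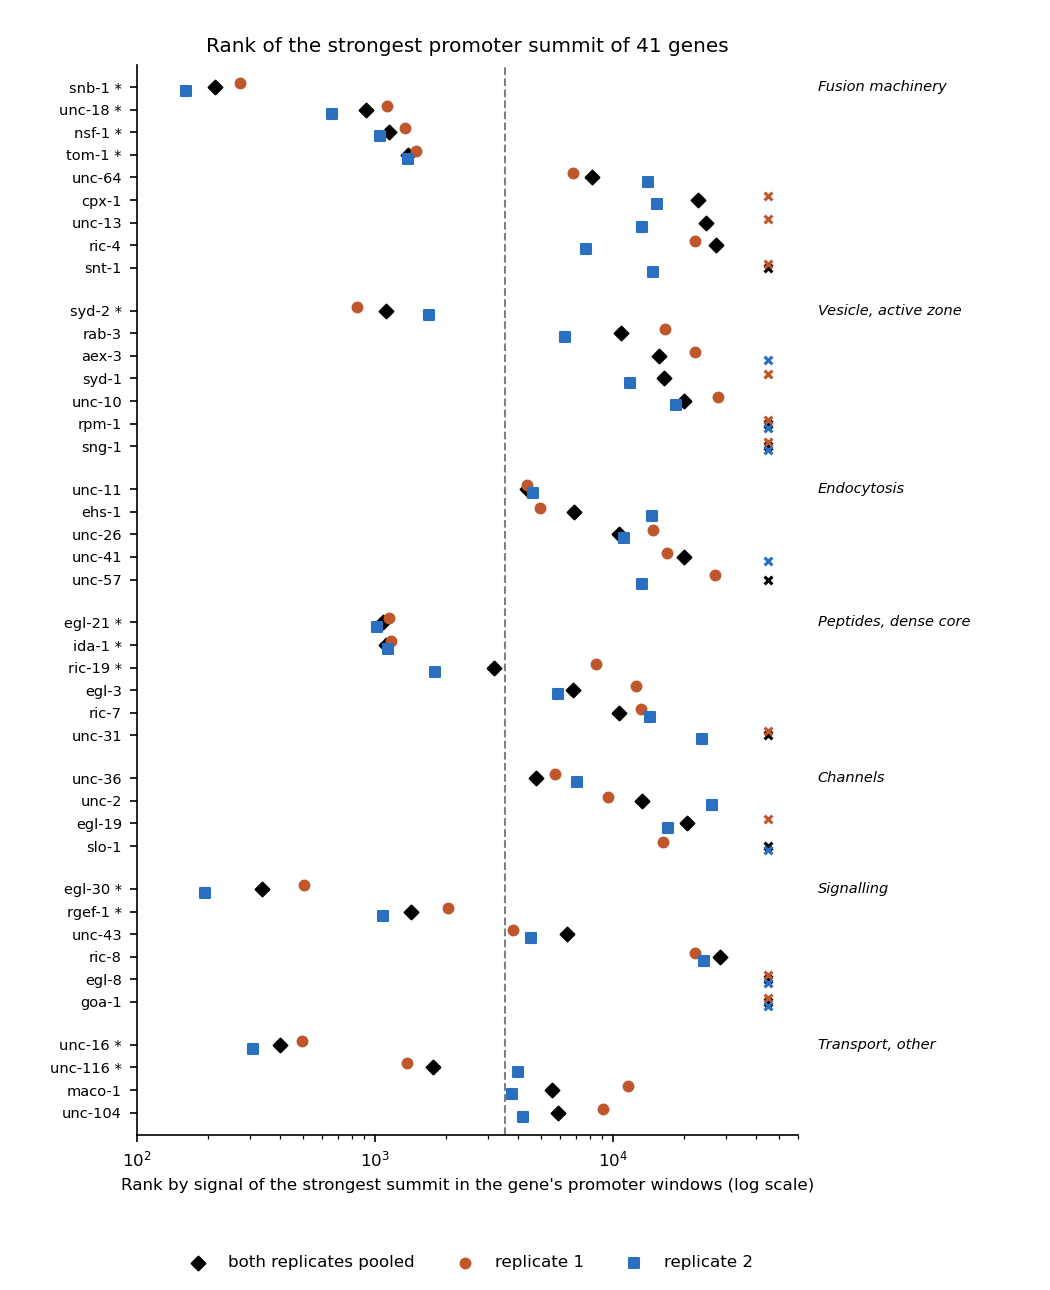
Rank by signal (log scale) of the strongest summit in the promoter windows of each of the 41 genes, by role, in the pooled list (black diamonds), replicate 1 (orange circles) and replicate 2 (blue squares). The dashed line is rank 3531, a cross at the right stands for no summit in that list, and an asterisk marks the 12 genes with a thresholded summit, which all lie left of the line in the pooled list.

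Of 7 genes for vesicle membrane proteins, Rab proteins and the active zone, 1 had a promoter summit, beside 11.2% of all genes. It was syd-2, which encodes liprin-alpha, a scaffold that organises the active zone. The peak on X from 10555497 to 10555896 had a signal of 154.4 (rank 1113), with its summit 458 bp upstream of syd-2 and within 200 bp of the non-coding RNA gene F59F5.9. Signal was 106.4 in replicate 1 at rank 840 and 54.8 in replicate 2 at rank 1687, so the peak stood higher in replicate 1. In the pooled relaxed list rab-3, the gene of the Rab of synaptic vesicles, had a signal of 30.3, and aex-3, which encodes its exchange factor, had 23.5. The active zone genes syd-1 and unc-10, which encodes RIM, had 22.8 and 20.0. Neither sng-1, the synaptogyrin gene, nor rpm-1, which encodes a presynaptic ubiquitin ligase, had a summit in any of the lists.

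All 5 endocytosis genes lacked a thresholded promoter summit, beside 11.2% of all genes with one. The closest to the threshold was unc-11, the gene of the clathrin adaptor AP180, with a pooled signal of 56.8 at rank 4350, the highest among the 29 genes without a thresholded summit. Its replicate values were 31.7 in replicate 1 (rank 4375) and 28.4 in replicate 2 (rank 4639), outside the strongest 3531 of both. The Eps15 gene ehs-1 had a pooled signal of 41.2, the synaptojanin gene unc-26 had 30.7 and the stonin gene unc-41 had 20.0. At unc-57, the endophilin gene, no pooled summit lay in a window, and the replicates had a signal of 9.63 in replicate 1, 940 bp upstream of a 5' end, and of 14.7 in replicate 2, 23 bp upstream. A thresholded summit with a signal of 116.2 lay 1070 bp upstream of unc-57, past the window edge, so its count depends on the window.

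Neuropeptide processing and dense core vesicle genes had a promoter summit at 3 of 6, beside 11.2% of all genes. The highest was at egl-21, which encodes the carboxypeptidase that removes basic residues from cut propeptides. Its peak on chromosome IV from 10481657 to 10482056 had a signal of 157.9 (rank 1081), and the summit was 13 bp upstream of the 5' end. Signal was 83.7 in replicate 1 and 76.3 in replicate 2. The peak of ida-1, the gene of the dense core vesicle membrane protein IA-2, lay on chromosome III from 5755137 to 5755536, 202 bp upstream and within 200 bp of the non-coding RNA gene B0244.14. It had a signal of 154.3 (rank 1114), with 82.3 in replicate 1 and 69.8 in replicate 2, close to egl-21 in every list.

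The weakest of the 12 was ric-19, which encodes the ICA69 protein of dense core vesicle maturation. Its peak on chromosome I from 3781505 to 3781904 had a signal of 71.5 (rank 3167), with the summit 15 bp upstream, and it also lay in a window of pmlr-1. Replicate 2 had a signal of 52.5 there at rank 1793, and replicate 1 only 20.4 at rank 8544, with its summit 120 bp away. This call therefore rests on replicate 2.

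The convertase gene egl-3, which acts before egl-21 in propeptide trimming, had no thresholded summit in its windows and a pooled signal of 41.6 (rank 6807). A thresholded peak with a signal of 290.7 (rank 447) had its summit 1055 bp upstream of egl-3, just past the edge of the window, on chromosome V from 10174690 to 10174899. Signal there was 143 in replicate 1 and 147.9 in replicate 2, higher than at egl-21 in both lists. Of the other genes, ric-7, needed for neuropeptide secretion, had a pooled signal of 30.7. For unc-31, the gene of the dense core vesicle priming factor CAPS, the only summit was in replicate 2, with a signal of 10.0.

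No gene of the 4 that encode channels had a thresholded summit in a promoter window, beside 11.2% of all genes with one. In the pooled list unc-36, the gene of a calcium channel alpha2-delta subunit, had a signal of 53.5 (rank 4752), the CaV2 channel gene unc-2 had 26.4 and the CaV1 channel gene egl-19 had 19.6. The gene of the BK potassium channel, slo-1, had a summit in replicate 1 only, with a signal of 13.7.

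Signalling genes had a promoter summit at 2 of 6, beside 11.2% of all genes. The larger was at egl-30, which encodes the G protein alpha subunit Gq that promotes transmitter release. The peak on chromosome I from 1835469 to 1835727 had a signal of 352.9 (rank 337), with the summit 75 bp upstream, also in a window of C53H9.4. Signal was 156.4 in replicate 1 at rank 507 and 198.6 in replicate 2 at rank 194. The other was at rgef-1, the gene of a neuronal Ras exchange factor, on chromosome V from 9561842 to 9562241, 368 bp upstream. It had a signal of 128.3 (rank 1420), with 54.4 in replicate 1 and 72.6 in replicate 2.

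Of the 4 signalling genes without one, unc-43, the gene of calcium/calmodulin-dependent kinase CaMKII, had a pooled signal of 43.1. The strongest summits of the replicates in its long windows, with 34.8 in replicate 1 and 28.9 in replicate 2, lay at other places than the pooled one. The gene ric-8, which encodes an exchange factor of G alpha subunits, had a pooled signal of 15.3, the lowest of all with a pooled summit. The windows of goa-1, the gene of Go, and of egl-8, the gene of phospholipase C beta, held no summit in any list. Of the genes of Go and Gq only that of Gq had a promoter summit, beside 11.2% of all genes. The windows of egl-30 covered 3392 bp from 3 annotated 5' ends, and that of goa-1 covered 1201 bp from 1. The egl-30 summit also lay in a window of C53H9.4, so it cannot be assigned to egl-30 alone.

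Transport genes and maco-1 formed a group of 4, of which 2 had a promoter summit, beside 11.2% of all genes. The stronger was at unc-16, which encodes the cargo adaptor JIP3, on chromosome III from 9546069 to 9546312, 56 bp upstream and within 200 bp of the non-coding RNA gene ZK1098.13. It had a signal of 315.9 (rank 400), with 158.3 in replicate 1 and 154.3 in replicate 2. The other was at unc-116, the gene of the kinesin-1 heavy chain, on chromosome III from 8355077 to 8355476, 103 bp upstream, with a signal of 109.6 (rank 1763). Signal at unc-116 was 73.7 in replicate 1 at rank 1363 and 31.2 in replicate 2 at rank 4008. The replicate 2 summit lay near the same place, 84 bp upstream. It was a little under the weakest of the strongest 3531 peaks of replicate 2 (33.8), so the peak stood higher in replicate 1. In the pooled list maco-1, which encodes the neuronal membrane protein macoilin, had a signal of 47.8, and unc-104, the gene of the kinesin that carries synaptic vesicle precursors, had 45.9.

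The 2 replicates placed most of these peaks alike. Of the 12 summits, 10 had an overlapping peak among the strongest 3531 of both replicates, as did 73.5% of all promoter summits, and the exceptions were unc-116 and ric-19. Counted from the strongest 3531 peaks of replicate 1 alone, 11 of the 41 genes had a promoter summit (26.8%), beside 11.0% of all genes. From replicate 2 alone it was also 11 of 41, beside 10.9% of all genes. Replicate 2 summits lay within 64 bp of the thresholded summit for all 12, and replicate 1 summits within 28 bp for 11. The ratio of replicate 1 to replicate 2 signal ran from 0.389 at ric-19 to 2.36 at unc-116 with a median of 1.05, beside a median of 1.16 over 1854 promoter summits with a partner in both lists. From the 5th to the 95th percentile that ratio ran from 0.612 to 2.23 over all promoter summits. By this range ric-19 and unc-116 fell outside and the other 10 inside. Signal has no common scale across the lists, so the ratio is read only beside that of all promoter summits. Some replicate peaks overlapped more than 1 promoter summit and count more than once in the range.

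**Figure D2:**
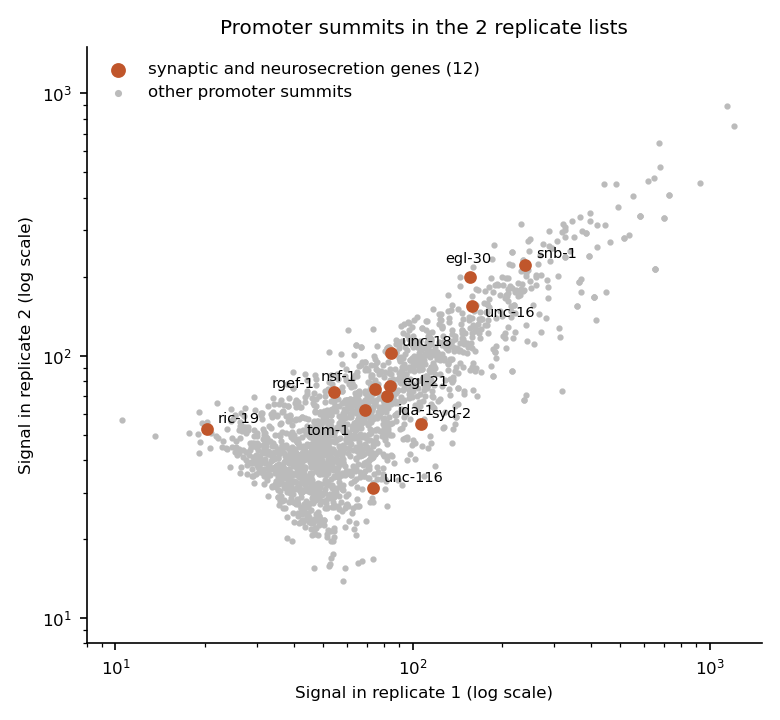
Signal in replicate 2 against signal in replicate 1 (both log scales, the authors' value per peak) for the 12 summits of synaptic and neurosecretion genes (orange) and the other promoter summits with a partner in both lists (grey). The 12 run along the cloud from ric-19 to snb-1, with ric-19 at its upper left edge and unc-116 at its lower right.

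The 29 genes without a thresholded promoter summit were not empty in the relaxed lists. Of these, 21 had a summit in the pooled list, with signals from 15.3 to 56.8 and a median of 30.3, 16 had one in both replicates, 9 in 1 replicate only and 4 in no list. A summit in both replicates means the windows of the same gene, not the same site. At unc-57, unc-26, ric-8 and unc-43 the summits of the replicates lay apart, and so did those of unc-2, rab-3, egl-3 and ric-4. At unc-2 they were 567 bp (replicate 1) and 850 bp (replicate 2) upstream of a 5' end, and at ric-4 592 and 803 bp. Others differed less, as at unc-64 with 399 and 285 bp. No summit of theirs was among the strongest 3531 of either replicate. In all, 33 of the 41 genes (80.5%) had a pooled relaxed summit in a window, beside 41.7% of all genes. The listed genes have more annotated 5' ends than most. With 1 end the share was 70%, beside 35.2% of all such genes. With 2 to 3 ends it was 87%, beside 55.5%, and with 4 or more 75%, beside 74.6%. By pooled signal, 7 of the 21 were above 40, namely unc-11, unc-36, maco-1, unc-104, unc-43, egl-3 and ehs-1, while 5 lay from 26 to 40 and 9 under 26. The pooled list has a fixed length of 30000 peaks, and its lowest signal was 14.4. By its deposited name it holds background as well as peaks, so a summit in it need not be a bound site.

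Position divided the 12 summits, with 5 less than 200 bp from the 5' end (egl-21, ric-19, unc-16, egl-30 and unc-116) and 7 between 200 and 500 bp upstream (ida-1, tom-1, unc-18, rgef-1, snb-1, syd-2 and nsf-1). The median was 260 bp, beside 235 bp over all genes with a promoter summit. The share of G and C within 50 bp of the summit ran from 36.6% at snb-1 to 63.4% at egl-30 with a median of 47.5%, beside a median of 41.6% over all promoter summits. Of the 12, 3 shared the summit with a window of another coding gene (27.1% of promoter summits did) and 3 lay within 200 bp of a non-coding RNA gene (13.1%).

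**Figure D3:**
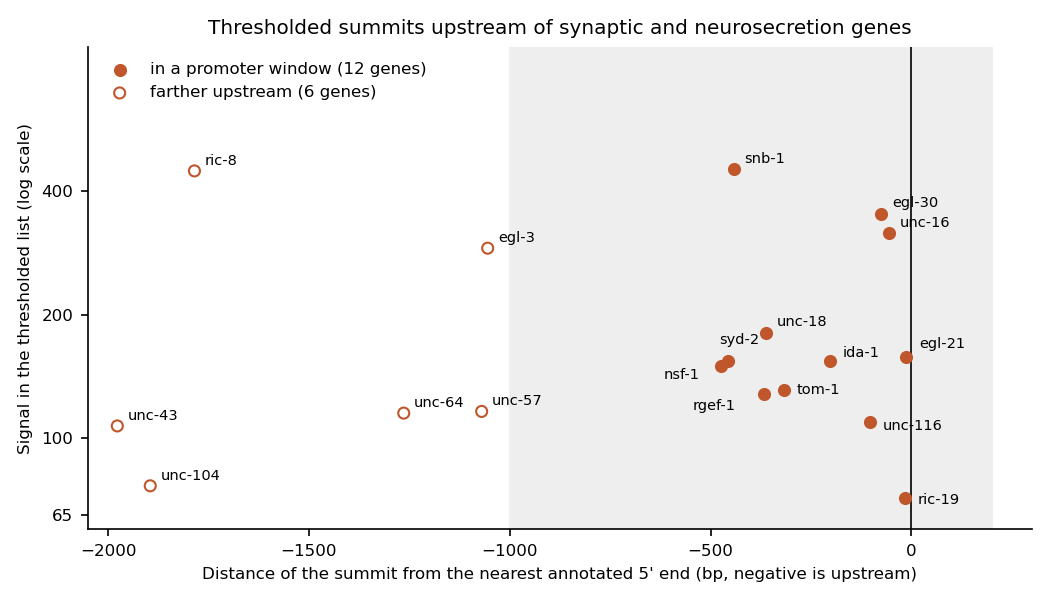
Signal in the thresholded list (log scale) against distance of the summit from the nearest annotated 5' end in bp, negative upstream, for the 12 genes with a promoter summit (filled) and 6 genes whose summit lay farther upstream (open). The grey band is the promoter window, and all 12 filled points lie upstream of the 5' end, between 13 and 473 bp.

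Another 6 genes had a thresholded summit between 1000 and 2000 bp upstream of a 5' end. With windows reaching 2000 bp upstream the listed genes with a summit were 18 of 41, beside 14.4% of all genes. With 1000 bp they were 12, beside 11.2%. The strongest was 1785 bp upstream of ric-8, with a signal of 448.7 (rank 221), close to that of snb-1, but this summit lay in promoter windows of mdf-2 and nduv-3. After that of egl-3 came unc-57 with 116.2 at 1070 bp, unc-64 with 115.1 at 1264 bp and unc-104 with 76.5 at 1895 bp. The peak of unc-104 had a signal of 58.4 in replicate 1 and 18.4 in replicate 2, at rank 9338. For unc-43 the signal was 107.1 at 1977 bp, inside the gene and upstream of an internal 5' end. The unc-43 summit is also counted below among those inside the genes. The nearest thresholded summit of the 29 genes was between 1055 and 49043 bp from a 5' end, with a median of 6935 bp.

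Inside the genes, outside promoter windows, 6 of the 41 genes (14.6%) had a thresholded summit, beside 3.77% of all genes. The listed genes are long, with a median length of 5674 bp among the 12 with a promoter summit and 8539 bp among the other 29, beside 2027 bp over all coding genes, and the part of length in this count was not tested. The strongest was a further peak in egl-30, on chromosome I from 1836644 to 1837060, with a signal of 461.3 (rank 206). This was higher than at its summit in a promoter window (352.9) and than at snb-1 (453.8). It lay in a 5′ untranslated stretch, 222 bp downstream of an internal 5' end and so just past the window edge at 200 bp. Signal there was 221 in replicate 1 and 242.2 in replicate 2. At egl-8 a peak in the 3′ untranslated region, 22281 bp from the nearest 5' end, had a signal of 285.6 (rank 462), with 156.6 in replicate 1 and 129.1 in replicate 2. Thus egl-8, with no summit in its windows in any list, had a strong one at its far end. Introns held the summits of slo-1 (117.4), ida-1 (77.0) and unc-43 (107.1, 106.7 and 66.1), and cpx-1 had one in its 3′ untranslated region (67.5). At ida-1 the intron peak had only 18.2 in replicate 1 at rank 10374, and at cpx-1 replicate 2 had 22.9 at rank 6557. Together 16 of the 41 genes had a summit in a window or in the gene. That combined count was not made over all genes, so it has no share beside it and is not read further.

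These genes have more annotated 5' ends than most, with a median of 2 beside 1, and so more window sequence, with a median of 1390 bp beside 1201 bp. Split by the number of ends, 5 of 10 genes with 1 end had a promoter summit (50%), beside 8.82% of all genes with 1 end. With 2 to 3 ends it was 5 of 23 (21.7%), beside 16.3%, and with 4 or more 2 of 8 (25%), beside 23.5%. The gap to the background was thus wide for genes with a single 5' end, among them snb-1, egl-21, ida-1, ric-19 and unc-116, and narrow for the others. These are small counts, and the difference was not tested. By chromosome, genes with a promoter summit numbered 4 of 10 on I, 0 of 5 on II, 3 of 5 on III, 1 of 6 on IV, 2 of 9 on V and 2 of 6 on X, beside 15.7%, 9.51%, 17.5%, 10.9%, 7.17% and 10.4% of all genes there.

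The marked letters AATCGAT or AATCAAT lay within 50 bp of 6 of the 12 summits (50%), beside 37.9% of all promoter summits. Windows of the same size 500 bp to either side held them in 1 of 24 cases (4.17%), beside 9.33% around all promoter summits. The letters had been picked for their frequency at the summits of the whole list, these 12 included. The 6 were the 5 genes marked in the printed sequences and tom-1, which had AATCAAT, and the match nearest to the summit was centred 12 to 17 bp from it. Of the 3 highest signals, snb-1 and unc-16 had the letters and egl-30 had none. In the same 50 bp, TCAAGTG or TTAAGTG, known as the binding site of the NK-2 class, lay at 0 of 12 summits, beside 0.966% of all promoter summits, and CTGCGTC lay at ric-19 alone (8.33%), beside 10.1%. All motifs were searched on both strands, and matches on opposite strands may overlap.

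Over the whole promoter windows AATCGAT or AATCAAT was found in 11 of the 12 genes with a summit and in 19 of the 29 without (65.5%), beside 82.3% of all genes with a summit and 57.6% of those without. The genes without a summit have longer windows, and per 1000 bp the matches were 1.02 with a summit and 0.752 without, beside 1.57 and 0.765 over all genes. The letters are thus common in windows that hold no thresholded summit, as in those of unc-43, unc-13 and unc-11, which had 9, 6 and 6 matches.

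Genes with related functions that are not on the list were read in the same way. Of 121 such genes, 32 had a thresholded promoter summit (26.4%), beside 11.2% of all genes. Their 35 summits had a median signal of 107.5, beside 154.3 for the 12. Of these 35 summits, 13 also lay in a window of another coding gene, namely those of klc-1, unc-69, syx-5, apb-1, rbg-1, dnc-1, gpc-2, amph-1, vps-50, gpb-1, snt-2, sbt-1 and clic-1. Endocytosis genes differed most by count, with 0 of 5 listed genes and 8 of 10 related ones, beside 11.2% of all genes. The difference was not tested and depends on the window, since the listed gene unc-57 had a thresholded summit 1070 bp upstream. Highest of the 8 were the clathrin adaptor genes apb-1 (259) and dpy-23 (256.6). After them came aps-2 (126.8), amph-1 (109.5), rme-1 (93.8), apa-2 (72.8), the dynamin gene dyn-1 (70.1) and the clathrin light chain gene clic-1 (68.0). Channels had 0 of 4 listed and 0 of 14 related genes, beside 11.2% of all genes. Among genes of transmitter synthesis and transport, 1 of 18 had a promoter summit (5.56%), under the 11.2% of all genes. It was the GABA synthesis gene unc-25 (107.5).

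For dense core vesicle, axonal transport and signalling genes the shares of listed and related genes were closer, beside 11.2% of all genes. Dense core vesicle genes had 3 of 6 listed and 6 of 14 related, namely cccp-1 (289.8), unc-108 (173.3), aex-5 (105.6), vps-50 (98.7), rund-1 (81.6) and sbt-1 (71.9). Axonal transport had 2 of 4 listed and 6 of 16 related, namely klc-1, the kinesin light chain gene (551.5), unc-69 (284.3), unc-14 (233.5), dnc-1 (186.6), unc-76 (121.8) and unc-33 (82.8). The other light chain gene, klc-2, had none. Signalling had 2 of 6 listed and 7 of 19 related, namely eat-16 (449.7), gsa-1 (191.2), gpc-2 (185.6), gpb-1 (83.3), kin-1 (78.6), pde-4 (71.5) and acy-1 (66.3). The gene eat-16 encodes a regulator that turns off Gq, and gsa-1 and acy-1 encode Gs and an adenylyl cyclase. Other SNARE, synaptotagmin and active zone genes had 4 of 30 (13.3%), near the 11.2% of all genes. They were syx-5 (263.6), rbg-1 (201.2), sph-1 (122.3) and snt-2 (75.7). Listed genes of the fusion, vesicle and active zone groups had 5 of 16, and the difference was not tested.

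**Figure D4:**
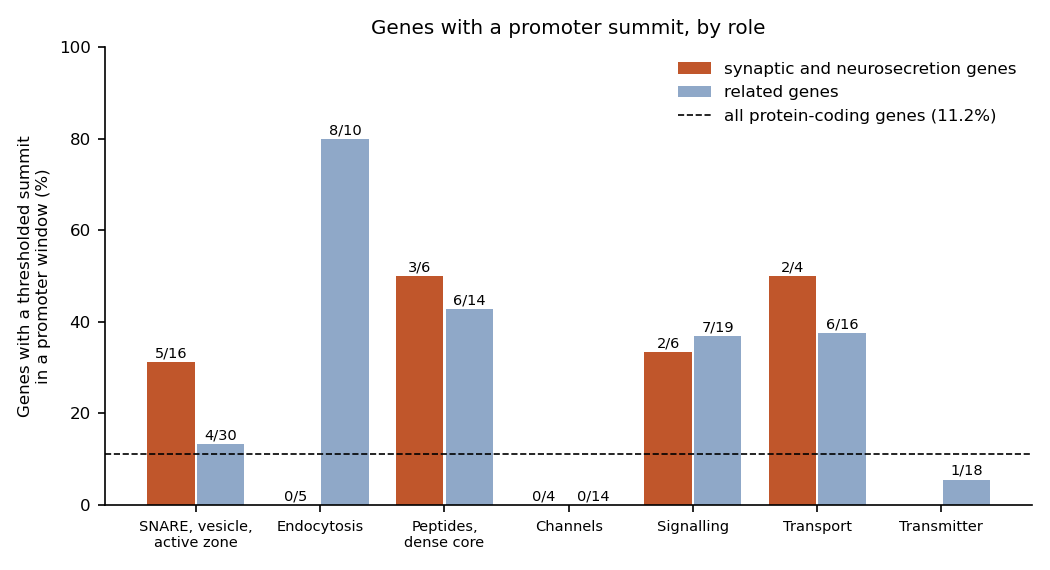
Percent of genes with a thresholded summit in a promoter window, by role, for the listed synaptic and neurosecretion genes (orange) and related genes (blue), with the number of genes over each bar and the share of all protein-coding genes, 11.2%, as a dashed line. Bars of the endocytosis genes differ most, with 0 of 5 listed and 8 of 10 related, and channels have 0 in both.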

How the data were processed

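The ChIP-seq peak lists were used as deposited. Per the deposited file records, the authors made a relaxed peak list from each replicate with a control, 1 from both replicates pooled, and the thresholded list from these by the irreproducible discovery rate. The aligner is not given in the sources used here, nor is the peak caller. Deposited peaks carry a signal and, from the authors' caller, a −log10 q-value. The authors' signal ranked peaks within a list, and the q-values were not used further. Coordinates count from 1 on ce11. Genes came from Ensembl release 115. The partner of a peak was the strongest overlapping peak (at least 1 bp) of a replicate list. Every listed gene is named, and related genes where they had a thresholded summit. The members, lists and motifs were chosen with earlier results of these data known, so shares stand beside those of all genes and no test was run. Precision rests on 2 replicates. Counting was checked on simulated data. Python 3.11.15, numpy 2.4.6, pandas 2.3.3 and matplotlib 3.10.9 were used. Alternatives were other windows, each replicate alone, stronger peaks, any overlap, the outermost or nearest 5' end, other partner rules and other motif distances.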

Additional observations from a re-analysis of the deposited data

How the results depend on the processing

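The 12 genes with a promoter summit were also 12 with windows of 500 bp upstream to 100 bp downstream (8.80% of all genes), with the outermost 5' end alone (10.3%) and with each summit given to the nearest gene (8.76%). They were 14 with any overlap of peak and window, gaining egl-3 and unc-57, beside 12.2% of all genes, and 18 with windows of 2000 bp upstream, beside 14.4% of all genes. With peaks above the median signal they were 11, losing ric-19, and the related genes were 17 of 121, against 32 in the whole list, while the share of all genes was 5.67%, against 11.2%. With 1 replicate alone the listed genes numbered 11 each time, losing ric-19 without replicate 2 and unc-116 without replicate 1, and the related genes ranged from 29 to 30. Requiring a 50% overlap or summits within 100 bp left 10 partners in both replicates. AATCGAT or AATCAAT was found at 6 summits within 25 bp and at 8 within 100 bp. ATCGAT alone, chosen after seeing the data, was found at 4, among them egl-21. No paired analysis was possible because there was 1 group and no test. Without read counts, a gene low in the relaxed lists cannot be told apart from one with no binding.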
